A study of Homo sapiens with 16 samples.

Results

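NEUROG3, NEUROD1, INSM1, NKX2-2 and PAX4 are 5 transcription factor genes of early endocrine commitment in the pancreas. They were chosen by name as members of that programme and make up 5 of the 35810 genes measured. All 5 passed the filter on low counts, together with 16705 genes in all. RNA was sequenced from 16 libraries of pancreatic progenitors that were differentiated for 19 days from human embryonic stem cells of the line SA121, genotype NGN3-GFP, a reporter line for NEUROG3 (also called NGN3). The study asked what happens between the loss of actin filaments and endocrine specification, and used latrunculin B (LatB), a compound that binds actin monomers and takes filaments apart. The 6 groups were a control at 0 h (n = 3), a control given the vehicle DMSO for 24 h (n = 2), and cells given 0.5 µM LatB for 3 h (n = 3), 6 h (n = 3), 12 h (n = 2) or 24 h (n = 3). The control at 0 h carries a DMSO tag in the labels but is described in the series text as taken before treatment. All groups share the same line and genotype, so the reporter allele is in the controls too. Whether the reporter changes the count of NEUROG3 is not stated in the sources used here, nor whether the numbered libraries of a group came from separate cultures. P-values therefore measure the spread between these libraries, which may be technical.

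NEUROG3 is a basic helix-loop-helix (bHLH) factor that pancreatic progenitors switch on for a short time when they leave the cell pool and begin to become islet cells. It pairs with E proteins, the products of TCF3, TCF4 and TCF12, binds E-boxes (CANNTG) and activates genes of the endocrine programme. NEUROD1 is a related bHLH factor that acts after it, INSM1 is a zinc finger repressor of endocrine and neuroendocrine cells, NKX2-2 is a homeobox factor needed for several islet cell types, and PAX4 is a paired homeobox repressor that favours the beta and delta cell fates.

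The bases just before the start sites are shown because the E-box is the site that NEUROG3 and NEUROD1 themselves recognise. RefSeq (GRCh38.p14) gave 6 start sites for 4 of the 5 genes, all but INSM1, and the 250 bases before each were searched on both strands for CANNTG. NEUROG3 lies at chr10:69571698-69573422 and its window at chr10:69573423-69573672, both on the minus strand. NKX2-2 lies at chr20:21511017-21514064, minus strand, and the window shown, chr20:21522690-21522939, belongs to a RefSeq start upstream of the transcript that the deposited tables quantify. That RefSeq start is at 21522689 and the quantified transcript starts at 21514064. The second NKX2-2 window belongs to a start at 21512960, inside the gene. The bases just before the start of the quantified NKX2-2 transcript were therefore not searched. PAX4 lies at chr7:127610292-127618142, minus strand, and its window at chr7:127618143-127618392 abuts the start of the transcript that carried most of its reads at 24 h of LatB. Capitals mark each E-box, and all 3 windows read 5′ to 3′ towards the gene.
NEUROG3: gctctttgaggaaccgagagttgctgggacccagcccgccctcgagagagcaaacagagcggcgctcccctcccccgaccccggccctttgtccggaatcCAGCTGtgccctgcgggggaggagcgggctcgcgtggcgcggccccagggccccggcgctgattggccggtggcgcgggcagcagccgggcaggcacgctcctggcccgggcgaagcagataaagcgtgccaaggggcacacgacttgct
NKX2-2: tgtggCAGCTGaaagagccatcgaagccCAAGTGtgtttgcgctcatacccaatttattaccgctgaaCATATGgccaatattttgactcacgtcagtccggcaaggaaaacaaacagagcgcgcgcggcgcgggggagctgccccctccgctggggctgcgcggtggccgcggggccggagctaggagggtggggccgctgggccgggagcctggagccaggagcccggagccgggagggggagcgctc
PAX4: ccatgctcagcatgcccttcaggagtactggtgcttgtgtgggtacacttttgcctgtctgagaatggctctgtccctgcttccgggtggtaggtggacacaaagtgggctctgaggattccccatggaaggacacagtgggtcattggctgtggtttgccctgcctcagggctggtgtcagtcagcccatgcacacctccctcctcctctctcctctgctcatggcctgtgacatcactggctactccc
The NEUROG3 window held 1 E-box, CAGCTG, that begins 150 bases before the start. The NKX2-2 window held 3, CAGCTG at 245 bases, CAAGTG at 222 and CATATG at 182. The PAX4 window shown, the NEUROD1 window (chr2:181680518-181680767) and the second windows of NKX2-2 and PAX4 held none. Of all 35116 RefSeq windows of this length, 61.8% held CANNTG and 13.99% held CAGCTG. The form CAGATG, in 12.15% of all windows, was in none of the 6. The N-box CACNAG, the site of HES repressors, was found 3 times in the PAX4 window, in no other of the 6, and in 32.04% of all windows. The letters alone do not show binding. INSM1, the other gene on chromosome 20, lies at chr20:20368104-20370949 on the plus strand.

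Each library held 23609727 to 33515398 estimated reads. Progenitor markers (PDX1, NKX6-1, SOX9, GP2 and ONECUT1, 5 of 5 detected in every library) summed to 1728 to 3336 CPM (counts scaled to library size), and the 5 hormone genes to 11.5 to 89.1. Most of the hormone sum was SST in every library. Of the neural markers, ELAVL3 had 0 to 4 reads per library, SOX10 0 to 9 and SOX2 5 to 206. STMN2 had 60 to 185 reads and NEFL 253 to 1416, and NEFL made up most of the neural sum. The sum of the 5 neural markers ran from 13.9 to 60.35, of the 5 intestinal markers from 105.6 to 265.8, of the 5 acinar markers from 4.06 to 41.5, and of the 3 pluripotency markers from 194 to 441, nearly all of it LIN28A. LatB 12 h replicate 2 stood apart. Its 5 mesenchymal markers summed to 813 against 64.3 to 198 in the other 15 libraries, its 3 endothelial markers to 42.2 against 3.86 to 17.0, and its 5 liver-type markers to 1579 against 525.5 to 950. For the 5 genes and the lists below, calls and shares at 12 h are therefore also given without it, while group means and ratios at 12 h include it.

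NEUROG3 rose in steps from a low level. Its CPM was 0.438, 0.603 and 1.36 in the control at 0 h, from 11, 18 and 32 reads, and 2.07 and 2.35 in the control at 24 h. After LatB it was 0.799, 1.48 and 0.988 at 3 h and 3.27, 3.41 and 4.23 at 6 h. It reached 8.62 and 13.9 at 12 h and 25.6, 59.8 and 49.5 at 24 h, where 749 to 1948 reads stood behind a value. The 3 h libraries overlapped the control at 0 h, and every other pair of neighbours in the order of levels was separate. The control at 24 h lay between LatB 3 h and LatB 6 h. From 3 to 6 h it rose by 1.74 on the log2 scale (SE 0.40, edgeR adjusted p = 0.00743), from 6 to 12 h by 1.64 (SE 0.36, edgeR adjusted p = 0.00478) and from 12 to 24 h by 1.99 (SE 0.36, edgeR adjusted p = 0.00544). Mean CPM at 24 h of LatB was 56.2 times the control at 0 h (log2 fold change 5.83, SE 0.41, edgeR adjusted p = 4.33e-07). With 11 reads the 95% exact Poisson interval runs from 5.49 to 19.7 reads, and it covers counting error only.

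INSM1 followed the same course at a higher count. Control libraries held 0.996, 0.871 and 1.70 CPM at 0 h and 3.39 and 2.975 at 24 h. LatB libraries held 2.97, 2.60 and 2.15 CPM at 3 h, then 6.01, 6.32 and 8.415 at 6 h. At 12 h they held 11.2 and 18.7 CPM, and at 24 h 34.0, 81.5 and 74.2. All 6 groups of INSM1 were separate from their neighbours in the order of levels. LatB 3 h and the control at 24 h were so only barely, at 2.973 CPM in the highest library of the former and 2.975 in the lowest of the latter. That gap lies well within counting error (95% exact Poisson intervals of 75.06 to 113.9 and 76.86 to 116.1 reads). Each step between LatB times was called higher, at 1.42 from 3 to 6 h (SE 0.34, edgeR adjusted p = 0.00986), 1.13 from 6 to 12 h (SE 0.33, edgeR adjusted p = 0.0222) and 2.07 from 12 to 24 h (SE 0.34, edgeR adjusted p = 0.00316). The 24 h mean was 53.2 times the control at 0 h.

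NKX2-2 was the 1 gene of the 5 called at 3 h against the control at 0 h. It was at 0.239, 0.402 and 0.467 CPM in the control at 0 h, from 6, 12 and 11 reads, and at 1.503, 1.81 and 1.36 CPM after 3 h of LatB. The vehicle alone gave 1.15 and 1.38 CPM at 24 h, which overlaps LatB 3 h. Later LatB libraries were at 2.09, 2.99 and 4.48 CPM at 6 h, 5.25 and 5.18 at 12 h, and 9.93, 26.1 and 23.3 at 24 h. Apart from the overlap of LatB 3 h with the control at 24 h, neighbouring groups were separate. The steps from 3 to 6 h (1.03, SE 0.35, edgeR adjusted p = 0.0514) and from 6 to 12 h (0.71, SE 0.36, edgeR adjusted p = 0.163) missed the threshold, and the step from 12 to 24 h passed it (1.92, SE 0.37, edgeR adjusted p = 0.00713). The step from 3 to 6 h was called in 7 of 13 alternatives. They included DESeq2 (1.04, DESeq2 adjusted p = 0.0229), only the compared groups (1.03, edgeR adjusted p = 0.0294) and leaving out LatB 6 h replicate 1 (1.26, edgeR adjusted p = 0.0329). Its adjusted p by edgeR or DESeq2 ran from 0.0229 to 0.220 over the alternatives tried.

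NEUROD1 rose least of the 5. Its CPM was 0.478, 0.402 and 0.467 in the control at 0 h and 0.915 and 0.971 in the control at 24 h. After LatB it was 0.735, 0.794 and 0.511 at 3 h, 0.761, 1.55 and 1.29 at 6 h and 1.18 and 2.47 at 12 h. It then reached 2.63, 8.47 and 8.25 at 24 h, 14.4 times the control at 0 h by the means. The control at 24 h, LatB 6 h and LatB 12 h overlapped in a chain, and LatB 24 h was separate from all of them. Only the last step between LatB times was called, at 1.81 (SE 0.46, edgeR adjusted p = 0.0255). That call was lost without LatB 12 h replicate 1 (1.39, edgeR adjusted p = 0.0906), without LatB 24 h replicate 2 (1.56, edgeR adjusted p = 0.0788) and without LatB 24 h replicate 3 (1.59, edgeR adjusted p = 0.0848).

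PAX4 stayed low until the last interval. It was at 0.359, 0.402 and 0.339 CPM in the control at 0 h, from 9, 12 and 8 reads, and at 1.32 and 0.8455 in the control at 24 h. LatB gave 0.416, 0.902 and 0.443 CPM at 3 h, 0.914, 1.29 and 0.746 at 6 h and 0.919 and 1.996 at 12 h. None of these 3 LatB groups was separate from the control at 24 h. At 24 h of LatB it was at 5.97, 15.6 and 12.4 CPM, above every other library. Its step from 12 to 24 h, 2.94 (SE 0.46, edgeR adjusted p = 0.00263), had the largest log2 fold change of the 5, and its earlier steps, 0.75 and 0.58, were not called. In RNA from whole cultures, more cells that express a gene and more RNA per cell cannot be told apart, for this and the other genes.

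**Figure D1:**
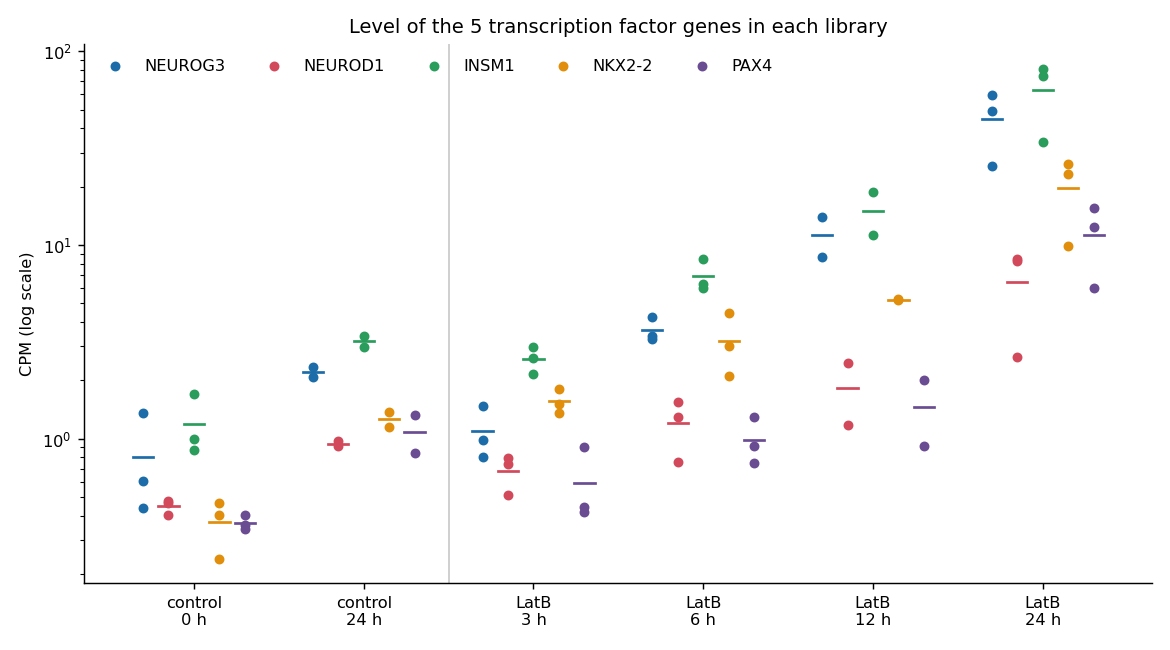
Level of each gene in each of the 16 libraries, as CPM on a log axis, by group. Points are libraries and bars are group means. INSM1 and NEUROG3 end highest at 24 h of latrunculin B (means 63.2 and 44.9 CPM). At 3 h the 4 genes other than NEUROG3 lie above the control at 0 h, PAX4 narrowly (lowest library 0.416 against 0.402 CPM). PAX4 lies above both controls only at 24 h.

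Against the control at 0 h, 1 of the 5 genes (NKX2-2) was called higher at 3 h, where 16.8% of all genes tested were, and 5 of 5 were called higher at 6 h, where 22.9% were. All 5 were called higher at 12 h too (19.1% of all genes), and at 24 h against the control at 24 h (21.9%) or at 0 h (22.7%). These comparisons reuse the same 3 libraries of the control at 0 h, apart from that against the control at 24 h. Leaving out LatB 12 h replicate 2 reduced the 12 h count to 3, with NEUROD1 at 1.39 (edgeR adjusted p = 0.104) and PAX4 at 1.31 (edgeR adjusted p = 0.136). At 6 h the count fell to 3 without any 1 library of the control at 0 h or without LatB 6 h replicate 2, and to 4 without LatB 6 h replicate 1 or 3, through NEUROD1 and PAX4 alone. At 3 h INSM1 joined NKX2-2 without replicate 3 of the control at 0 h (1.47, edgeR adjusted p = 0.0452).

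Between neighbouring LatB times, 2 of the 5 genes were called higher from 3 to 6 h (11.9% of all genes were), 2 from 6 to 12 h (13.9%) and 5 from 12 to 24 h (5.96%). The first 2 counts were both of NEUROG3 and INSM1. From 6 to 12 h, leaving out LatB 12 h replicate 2 ended both calls (NEUROG3 at 1.245, edgeR adjusted p = 0.0663, and INSM1 at 0.70, edgeR adjusted p = 0.272), and INSM1 lost its call without LatB 6 h replicate 1 (1.04, edgeR adjusted p = 0.0675) or 2 (1.07, edgeR adjusted p = 0.0683). From 12 to 24 h all 5 calls rest on the spread shared by the 6 groups, since with only those 5 libraries in the fit none was called by edgeR, at adjusted p of 0.197 to 0.284, unadjusted p under 0.05 for all 5 and log2 fold changes of 1.79 to 2.91, while DESeq2 on all groups called all 5. The effect of LatB at 24 h, against the control at 24 h, was larger than at 6 h, against the control at 0 h, for 3 of the 5 genes (NEUROG3, INSM1 and PAX4), where 11.4% of all genes were called larger. Leaving out 1 library gave 0 to 4 genes, and 0 without replicate 3 of the control at 0 h or either library of the control at 24 h.

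The vehicle was sampled only at 24 h in the libraries used here, and the 5 genes were higher in the control at 24 h as well. Both libraries of that control lay above all 3 of the control at 0 h for each of the 5 genes, at log2 fold changes of 1.07 to 1.77. The share of all genes that lay apart in this way was not counted, so this separation is a description only. None was called by edgeR, with 0.251% of all genes called in either direction and 0.0299% called higher in this comparison, although 4 had an unadjusted p under 0.05 and DESeq2 called 3 (NEUROG3, INSM1 and NKX2-2). On the scale of the whole rise from the control at 0 h to LatB 24 h, the control at 24 h had covered 3.19% for NEUROG3, 3.21% for INSM1, 4.62% for NKX2-2, 6.54% for PAX4 and 8.23% for NEUROD1. Set against the control at 24 h instead, 0 genes were called at 3 h (1, NEUROG3 at -1.03, had an unadjusted p under 0.05), 2 at 6 h (INSM1 and NKX2-2) and 3 at 12 h (these and NEUROG3) by edgeR. NKX2-2 at 3 h was then at 0.30 (edgeR adjusted p = 0.636) and PAX4 at -0.89.

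The order of onset depended on the measure. By the first call against the control at 0 h, NKX2-2 came at 3 h and the other 4 at 6 h. By the first time at which every LatB library lay above every library of the control at 0 h, NEUROD1, INSM1, NKX2-2 and PAX4 came at 3 h and NEUROG3 at 6 h. By the first time at which every LatB library lay above both controls, NEUROG3, INSM1 and NKX2-2 came at 6 h, NEUROD1 at 12 h and PAX4 at 24 h. In each of these measures NKX2-2 was first or tied for first and NEUROG3 was never ahead of it. These orders are descriptions, and for PAX4 and NEUROD1 at 3 h they rest on 13 to 25 reads per library. The share of all genes that lay apart from the controls in these ways was not counted. For PAX4 the lowest LatB 3 h library was at 0.416 CPM and the highest of the control at 0 h at 0.402.

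By the share of the rise completed, NKX2-2 was ahead at 3 and 6 h. At 3 h of LatB its mean CPM had covered 6.12% of the distance from the control at 0 h to LatB 24 h, against 3.85% for NEUROD1, 2.23% for INSM1, 2.01% for PAX4 and 0.656% for NEUROG3. By 6 h the shares were 14.5% for NKX2-2, 12.5% for NEUROD1, 9.23% for INSM1, 6.43% for NEUROG3 and 5.62% for PAX4. At 12 h the means gave 23.7% for NEUROG3, 22.3% to 24.95% for INSM1, NEUROD1 and NKX2-2, and 9.95% for PAX4. The 2 libraries behind these means differed. Without LatB 12 h replicate 2 the shares were 25.15% for NKX2-2, 17.7% for NEUROG3, 16.2% for INSM1, 12.2% for NEUROD1 and 5.04% for PAX4, and without replicate 1 they were 24.8%, 29.6%, 28.3%, 33.7% and 14.9%. The order at 12 h thus turned on 1 library, apart from PAX4, which was lowest in both. On the log2 scale, by edgeR log2 fold changes, NKX2-2 had covered 36.0% of its rise at 3 h and NEUROG3 7.91%.

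**Figure D2:**
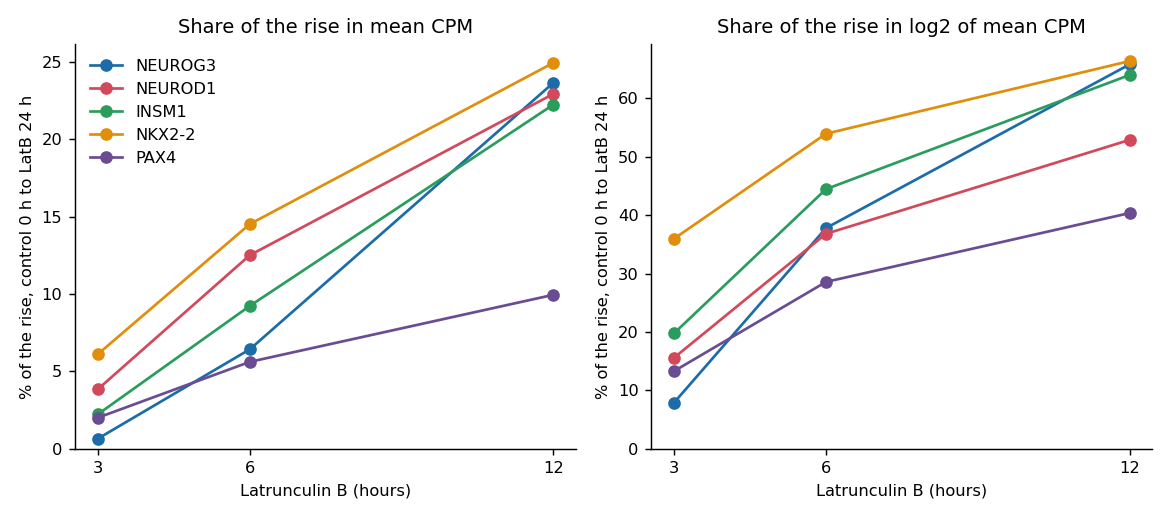
Share of the rise from the control at 0 h to latrunculin B at 24 h that each gene had covered at 3, 6 and 12 h, in percent of the rise in mean CPM (left) and of the edgeR log2 fold change (right). The right panel is titled as log2 of mean CPM but shows the share of the edgeR log2 fold change. NKX2-2 is highest at 3 and 6 h, PAX4 is lowest at 6 and 12 h, and the 12 h means pool libraries that differ, at 17.7% and 29.6% for NEUROG3 in the left panel.

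To compare the genes with each other, levels were taken per length, as TPM (transcript abundance for its length, scaled to the same total in each library). NEUROG3 had the highest mean TPM and INSM1 the second highest in all 6 groups. In the control at 0 h the means were 0.701 for NEUROG3, 0.427 for INSM1, 0.324 for PAX4, 0.2385 for NEUROD1 and 0.214 for NKX2-2. After 24 h of LatB the order was NEUROG3 at 38.0 ± 14.1 TPM (SD, n = 3), INSM1 at 22.5 ± 8.40, NKX2-2 at 11.2 ± 4.70, PAX4 at 9.83 ± 4.24 and NEUROD1 at 3.50 ± 1.78. Of these neighbours only PAX4 and NEUROD1 did not overlap between libraries. In the control at 0 h only PAX4 and NEUROD1 among neighbours did not overlap. INSM1 has more CPM than NEUROG3 but fewer TPM, since TPM divides by an effective length that is estimated for each library. In LatB 24 h replicate 1 that length was 3781 bases for INSM1 and 1619 for NEUROG3, where the full transcripts have 2846 and 1376. At 3 h of LatB the means, 0.877 TPM for NEUROG3 and 0.863 for INSM1, were close and the libraries overlapped.

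The ratio of NEUROG3 to NKX2-2 fell and then recovered. It was 2.78, 2.25 and 4.39 on the TPM scale in the control at 0 h, 2.71 and 2.57 in the control at 24 h, and 0.802, 1.23 and 1.07 after 3 h of LatB. The 3 h libraries lay below every control library, although 3 libraries against 3 cannot give an exact permutation p below 0.1. The ratio then was 2.34, 1.72 and 1.42 at 6 h, 2.46 and 4.04 at 12 h and 3.86, 3.42 and 3.15 at 24 h. Over the 11 LatB libraries its log2 rose with the log2 of time (r = 0.916, permutation p adjusted over 10 pairs = 0.000900, Spearman rho = 0.900, adjusted p = 0.00153), and r was 0.888 to 0.920 without any 2 of the 24 h libraries. At 3 h, then, NEUROG3 and NKX2-2 were about level per length, and by 24 h the ratio was back in the range of the controls.

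The ratio of NEUROG3 to NEUROD1 moved from 1.78, 2.96 and 3.09 at 3 h to 15.6, 11.1 and 9.08 at 24 h. In the controls it lay between 1.53 and 4.80. Its log2 rose with the log2 of time (r = 0.926, permutation p adjusted over 10 pairs = 0.00055, Spearman rho = 0.947), by 0.78 for each doubling of time. NEUROD1 also fell behind INSM1, from a mean ratio of 0.396 at 3 h to 0.148 at 24 h (r = -0.916, adjusted p = 0.00055). NEUROG3 to INSM1 (r = 0.763, adjusted p = 0.00458) and INSM1 to NKX2-2 (r = 0.843, adjusted p = 0.00458) rose as well, so that by r 5 of the 10 pairs passed the threshold. The 3 libraries at 3 h span a NEUROG3 to INSM1 ratio of 0.639 to 1.37, and those of 24 h one of 1.58 to 1.76. The range was thus narrower at 24 h than at 3 h.

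Ratios with PAX4 did not follow a straight course. NEUROG3 over PAX4 was 1.71 to 1.95 at 3 h, 2.30 to 6.09 at 6 h, 6.96 and 8.53 at 12 h and 3.67 to 4.28 at 24 h. It was thus highest at 12 h and lower again at 24 h, with no overlap between the libraries of those times. INSM1 over PAX4 also fell from 12 h to 24 h, from 3.95 and 4.61 to 2.09 to 2.465. At 6 h it was 2.29, 1.78 and 4.93, so that LatB 6 h replicate 3 lay above both 12 h libraries. The 12 h ratios rest on 21 and 59 reads of PAX4, the latter in LatB 12 h replicate 2. Over all LatB times Spearman rho was 0.689 for NEUROG3 over PAX4 (adjusted permutation p = 0.0391), which passed the threshold. For NEUROD1 over PAX4 rho was -0.53 (adjusted permutation p = 0.109), which did not. By r the trend for NEUROG3 over PAX4 was at 0.662 (permutation p adjusted over 10 pairs = 0.0508) and that for NEUROD1 over PAX4 at -0.642 (adjusted p = 0.0508), both short of the threshold. With CPM in place of TPM both passed it, as did the first without LatB 6 h replicate 3, LatB 12 h replicate 1 or LatB 24 h replicate 2 (r = 0.692 to 0.742, adjusted permutation p = 0.0302 to 0.0474) and the second without LatB 3 h replicate 2 or 3 or either 12 h library (r = -0.695 to -0.684, adjusted permutation p = 0.0470 to 0.0488).

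**Figure D3:**
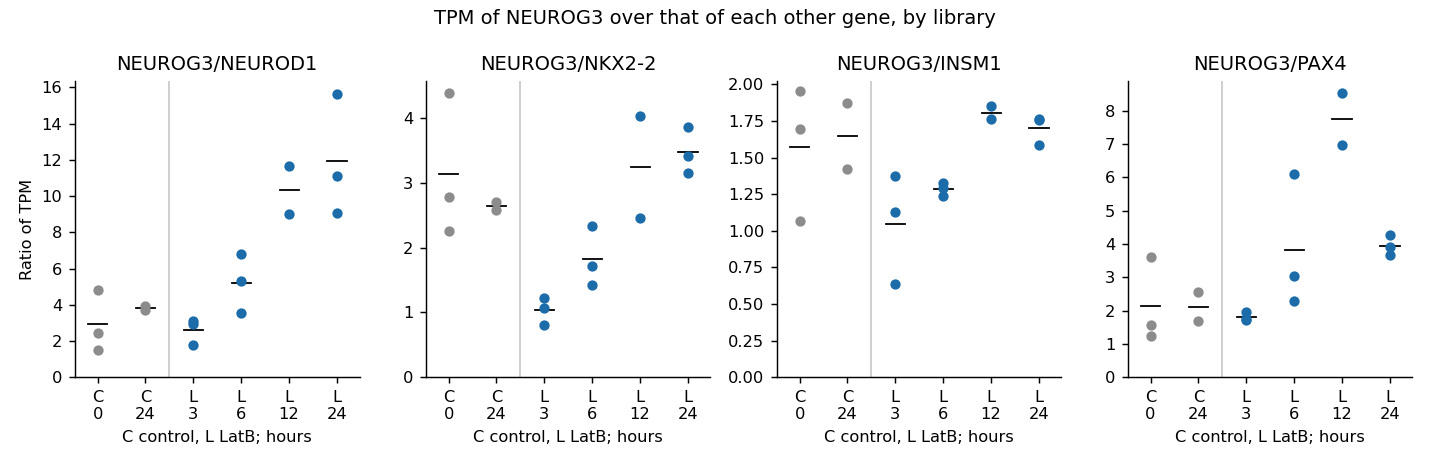
TPM of NEUROG3 divided by that of each other gene in every library, on linear axes that start at 0. Grey points are controls, blue points latrunculin B libraries and bars group means. The ratio to NKX2-2 drops to 0.802 to 1.23 at 3 h and returns to 3.15 to 3.86 at 24 h, and the ratio to PAX4 peaks at 12 h.

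The libraries of 1 group did not stand in the same order for all 5 genes at most times, but at 24 h of LatB they did. In the control at 0 h and at 3 h of LatB 2 of the 5 genes at most shared an order, and in the control at 24 h and at 6 h of LatB 3 did. At 24 h of LatB replicate 2 was highest and replicate 1 lowest in CPM for all 5 genes, with replicate 3 between. The share of all genes in that order was not counted. The highest library held 2.34 times the CPM of the lowest for NEUROG3, 2.40 for INSM1, 2.61 for PAX4, 2.63 for NKX2-2 and 3.23 for NEUROD1. The median over 13842 genes with a mean of at least 1 CPM at that time was 1.12, and 1.37% to 2.82% of them spread as widely as these members. At 12 h replicate 2 was above replicate 1 for 4 of the 5, by 1.61 to 2.17 times, and NKX2-2 was nearly equal.

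Deviations of log2(TPM + 0.05) from the group means were compared over all 16 libraries. All 10 pairs of genes had a positive r, from 0.383 for NKX2-2 with PAX4 to 0.819 for NEUROD1 with INSM1. After adjustment over the 10 pairs, 3 passed an exact permutation test of libraries within groups. They were NEUROG3 with NKX2-2 (r = 0.760, adjusted p = 0.00772, Spearman rho = 0.818, adjusted p = 0.00579, r = 0.704 without the 2 libraries farthest from the median), NEUROD1 with INSM1 (r = 0.819, adjusted p = 0.0489, Spearman rho = 0.794, adjusted p = 0.0399, r = 0.659) and INSM1 with NKX2-2 (r = 0.725, adjusted p = 0.0489, Spearman rho = 0.671, adjusted p = 0.0399, r = 0.563). All 3 calls were lost without any 1 of the LatB 24 h libraries, where NEUROG3 with NKX2-2 was at r = 0.670, 0.720 and 0.758 without replicate 1, 2 and 3 (adjusted exact permutation p = 0.0984, 0.0752 and 0.0752). Without replicate 3 of the control at 0 h, LatB 3 h replicate 2 or 3, LatB 6 h replicate 1 or either 12 h library, NEUROG3 with NKX2-2 was the 1 pair that passed, while 7 and 8 pairs passed without LatB 6 h replicate 2 and 3 and 5 without replicate 1 of the control at 0 h. The libraries of a pair share depth and composition, and the low genes carry counting error of their own, with a counting CV of 22.2% for NEUROG3 and 32.2% for NKX2-2 in the control at 0 h.

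Other marker genes differed between the same libraries. LatB 24 h replicate 1, lowest for all 5 genes, had the lowest hormone gene sum of its group (20.3 CPM against 89.1 and 78.4), the lowest progenitor sum (2424 against 3336 and 3123) and the highest liver-type (950 against 569 and 646) and mesenchymal sums (198 against 64.3 and 109). LatB 12 h replicate 2, higher in 4 of the 5, had the lower progenitor sum (1728 against 2372), the lower hormone sum (29.6 against 42.4) and the mesenchymal sum given above. SST made up most of each hormone sum, at 17.1, 80.9 and 68.4 CPM in replicates 1, 2 and 3 at 24 h. PPY was not lowest in replicate 1 there, at 0.444 CPM against 0.299 in replicate 3. The side on which these marker sums lay was thus opposite at the 2 times. Their part in the spread of the 5 genes was not tested.

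**Figure D4:**
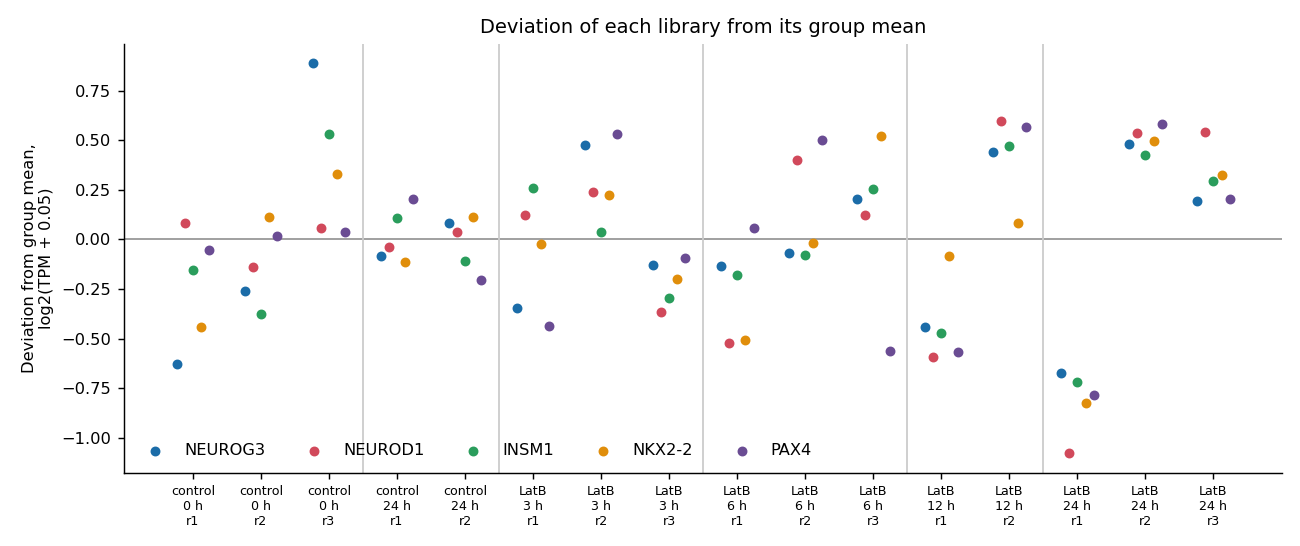
Deviation of each library from the mean of its group, in log2(TPM + 0.05), for the 5 genes. Replicate 1 of latrunculin B at 24 h lies below 0 for all 5 genes and replicates 2 and 3 above, while at 6 h PAX4 and NKX2-2 go opposite ways in replicate 3.

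Over all 16 libraries, the genes whose log2(CPM + 0.5) was most like that of NEUROG3 were ranked among 13984 genes, as a description that the shared groups dominate. INSM1 was at rank 1 (r = 0.988), NKX2-2 at rank 7 (r = 0.963), NEUROD1 at rank 17 (r = 0.949) and PAX4 at rank 40 (r = 0.935). Outside the 5, the nearest were SERTAD4BP (r = 0.977), AMBP (0.973), which encodes a precursor of plasma proteins, BRCC3 (0.968), a deubiquitinase, PGRMC1 (0.967), a haem-binding membrane protein, and NFE2L3 (0.965), a leucine zipper factor. AMBP went from 110.9 CPM in the control at 0 h to 225.7 at 24 h of LatB and BRCC3 from 30.9 to 42.5. SERTAD4BP was at 0.620 and 14.5 CPM.

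Genes known to act downstream of or beside NEUROG3 were counted from a fixed list of 22, of which 20 were tested. Of these, 3 were called higher and 2 lower at 3 h by edgeR, where 16.8% of all genes were higher and 14.7% lower, so that these shares were below the background. At 6 h 6 were higher and 2 lower (22.9% and 20.4% of all genes), and at 24 h against the control at 24 h 8 were higher and 0 lower (21.9% and 18.8%). At 12 h 10 were higher and 1 lower (19.1% and 16.8%), and without LatB 12 h replicate 2, 8 and 1 (16.1% and 14.5%), the 8 without CDKN1A, SNAI2 and BTBD17 and with CBFA2T3. At 24 h none of the 20 lay below 0 on the log2 scale and their median log2 fold change was 0.91, beside 0.01 over all genes. RFX6, an islet factor, was among those higher at 3 h, from 8.57, 8.14 and 7.72 CPM at 0 h to 29.9, 29.5 and 33.2 CPM (log2 fold change 1.92, SE 0.19, edgeR adjusted p = 6.39e-06). That was earlier than any called change in NEUROG3, which had only 25 to 41 reads per library at 3 h. RFX6 reached 41.6 to 56.2 CPM at 6 h and 21.9 to 36.1 CPM at 24 h.

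The Notch ligands of that list differed in time. In a proposed model a cell that expresses NEUROG3 holds back its neighbours through such ligands. The study describes expression patterns of the ligands and of HES1 that conflict with the classical form of that model. DLL4 rose from 2.27, 2.11 and 2.375 CPM in the control at 0 h to 18.9, 19.1 and 19.4 CPM at 6 h of LatB (3.09, SE 0.16, edgeR adjusted p = 2.01e-08) and was at 13.3 to 20.8 CPM at 24 h. DLL1 was at 40.8 to 43.4 CPM in the control at 0 h, 55.65 to 69.0 CPM at 6 h and 88.5, 147 and 120 CPM at 24 h, with replicate 1 lowest (1.498 against the control at 24 h, SE 0.19, edgeR adjusted p = 6.62e-05). HES6, a bHLH gene switched on in cells that enter differentiation, was also highest at 24 h, from 13.6 and 15.0 CPM in the control at 24 h to 34.25, 53.6 and 43.5 CPM at 24 h of LatB (1.61, SE 0.16, edgeR adjusted p = 9.37e-06). Both were already called higher at 6 h against the control at 0 h, where 22.9% of all genes were. DLL1 was then at 0.53 (SE 0.17, edgeR adjusted p = 0.0217) and HES6 at 0.40 (SE 0.14, edgeR adjusted p = 0.0349). In DLL1 and HES6 the 24 h libraries thus stood in the same order as in the 5 genes. That order was not particular to these genes, since GP2, PDX1 and HES1 shared it, while ID4 had the reverse.

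The partners and inhibitors of bHLH factors moved from the first time point. All 4 ID genes, whose products bind E proteins and keep them from NEUROG3 and NEUROD1, were called lower at 3, 6, 12 and 24 h, where 14.7%, 20.4%, 16.8% and 18.8% of all genes were. ID1 fell from 121, 110.2 and 87.1 CPM in the control at 0 h to 5.08, 6.50 and 4.60 CPM at 3 h (log2 fold change -4.30, SE 0.19, edgeR adjusted p = 1.35e-08), and was at 2.73 to 5.05 CPM at 24 h. ID3 was at -3.93 (SE 0.16) and ID4 at -1.545 (SE 0.12) at 3 h. At 3 h NEUROG3 and NEUROD1 were not called against the control at 0 h, where only 11 to 32 reads stood behind each value. Which genes changed first was therefore not tested. Among the E protein genes, TCF3 was called higher at 6 h (0.54, SE 0.10, edgeR adjusted p = 0.000471), TCF4 and TCF12 at 12 h (TCF4 alone without LatB 12 h replicate 2, where TCF12 was at 0.055), and all 3 at 24 h by 0.18 to 0.51.

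Of 15 regulators that act upstream of NEUROG3, 6 were called higher and 2 lower at 3 h, where 16.8% of all genes were higher and 14.7% lower. At 24 h against the control at 24 h 3 were higher and 6 lower, where 21.9% and 18.8% of all genes were. The 2 lower at 3 h and the 3 higher at 24 h were shares near the background. The 3 largest changes at 24 h were falls in ONECUT1 (-1.09, SE 0.09), a factor that activates NEUROG3, ONECUT2 (-0.84, SE 0.11) and GLIS3 (-0.78, SE 0.08), each called by edgeR. ONECUT2 and GLIS3 had been called higher at 3 h, at 0.30 and 0.31. HES1, the Notch effector that represses NEUROG3, was not called at any time, with CPM of 108.5 to 115 at 0 h and 98.6 to 111 at 24 h of LatB and a difference from the control at 24 h of -0.19 on the log2 scale (SE 0.13, edgeR adjusted p = 0.259). At 12 h it was called lower when LatB 12 h replicate 1 was left out (-0.52, edgeR adjusted p = 9.82e-05), and without replicate 2 it was at 0.15 (edgeR adjusted p = 0.0918). PDX1, a progenitor factor, was not called against the control at 24 h (-0.24, SE 0.11, edgeR adjusted p = 0.0880) and was called lower against the control at 0 h (-0.33, edgeR adjusted p = 0.0142).

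Close relatives of the 5 genes were mostly below the filter. Of 9 (NEUROG1, NEUROG2, ATOH1, NEUROD6, INSM2, NKX2-1, NKX2-4, PAX2 and PAX8), 1 was tested, the bHLH gene ATOH1, and it was called higher at 3, 6, 12 and 24 h. It went from 1.196, 0.436 and 0.594 CPM in the control at 0 h to 2.81, 4.73 and 7.09 CPM at 3 h of LatB, higher by 2.72 on the log2 scale (SE 0.68, edgeR adjusted p = 0.00751). At 12 h its libraries differed widely, at 5.56 and 0.6765 CPM, and replicate 2 lay within the range of the control at 0 h. The 12 h call was lost without replicate 1 (-0.12, edgeR adjusted p = 0.929). ATOH1 was at 2.76, 8.47 and 5.49 CPM at 24 h, with the libraries in the same order as for NEUROG3.

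PAX4 is the only 1 of the 5 genes with several protein-coding transcripts that received reads. At 24 h of LatB the longest transcript, ENST00000639438, which starts furthest upstream, took 60.5%, 56.2% and 61.2% of its reads, transcripts with a retained intron 32.7%, 28.6% and 25.7%, and ENST00000341640, with its start 3′ of that, 6.7%, 15.3% and 13.1%. In the control at 24 h the longest took 77.7% and 77.0%. In the control at 0 h, with 8 to 12 reads per library, it took 0%, 21.7% and 83.8%, so that no change in transcript use could be read at this depth.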

How the data were processed

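Polyadenylated RNA of 16 libraries was measured. The authors deposited estimated counts and TPM per transcript, in salmon's table format, for every library. The submitters' processing notes name Salmon 1.3.0, DESeq2 and hg38, whereas the study's methods describe STAR gene counts, so further settings are not given in the sources used here. A series table of the authors' comparisons (log2 fold changes, p-values) and its 16 columns of per-sample values were not used. Transcripts were joined to genes through GENCODE release 44 (GRCh38), without version numbers. Of 177456 transcripts 165533 matched, and 2.92% to 3.17% of reads per library were left out. Estimated counts were summed per gene and rounded, and TPM was summed per gene.

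Samples were grouped by title. Counts were tested with edgeR 4.0.16 (R 4.3.3), two-sided quasi-likelihood test, TMM, filterByExpr, all 6 groups in 1 fit, Benjamini-Hochberg over 16705 genes, called at an adjusted p under 0.05. SE is the log2 fold change over the square root of F. CPM uses TMM-scaled library sizes. Marker sums are CPM without TMM. Ratios and within-group deviations used log2(TPM + 0.05), two-sided permutation tests (100000 resamples over LatB libraries, or all 5184 arrangements within groups, scipy 1.17.1), and adjustment over 10 pairs. The programs were tested on simulated data. The 5 genes, the gene lists and the marker lists were chosen with earlier results of these data known. Named beside the 5 were HES1, PDX1, the 5 genes most like NEUROG3 and the 3 largest called changes of each list at 24 h with a mean of at least 1 CPM. RFX6, TCF3, TCF4, TCF12, GP2 and the single neural and hormone genes were named after their values were seen. A few genes of the lists are not reported here and were left out of their counts and sums. Depth was 23609727 to 33515398 reads per library. Salmon shares reads among transcripts it fits, so shares between transcripts of 1 gene are estimates, and strand use is not stated. Alternatives were DESeq2 1.42.0, other scalings and filters, a replicate block, other pseudocounts and leaving out each library. The recount of lists and shares at 12 h without each 12 h library was added after the data were seen.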

Additional observations from a re-analysis of the deposited data

Results flagged for a closer look

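For 3 of the 5 genes LatB had unlike effects at 24 h (set against the control at 24 h) and at 6 h (set against the control at 0 h) when edgeR tested the 2 effects against each other, a test in which 11.4% of all genes were called larger at 24 h. The difference was 2.14 on the log2 scale for NEUROG3 (SE 0.61, edgeR adjusted p = 0.0221), 1.75 for INSM1 (SE 0.56, edgeR adjusted p = 0.0373) and 1.98 for PAX4 (SE 0.66, edgeR adjusted p = 0.0474), larger at 24 h in each. For NEUROD1 it was 1.36 (edgeR adjusted p = 0.172) and for NKX2-2 0.87 (edgeR adjusted p = 0.350), neither of them called. The controls differ between the 2 times. Leaving out 1 library at a time gave 0 to 4 called genes, and 0 without replicate 3 of the control at 0 h (NEUROG3 at 1.57, edgeR adjusted p = 0.118) or without either library of the control at 24 h (NEUROG3 at 2.05 and 2.23, edgeR adjusted p = 0.0793 and 0.0567).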

How the results depend on the processing

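Of the counts of genes or pairs called, 128 recomputed values were within 1.5 times the reported count and 43 were not. At 3 h against the control at 0 h the count of 1 became 2 under DESeq2, with no filter and with only the compared groups, and 0 against the control at 24 h. Against that control it was 2 at 6 h and 3 at 12 h. DESeq2 called 3 genes between the controls. Fitting only the compared groups gave 1 for 12 h against 6 h and 0 for 24 h against 12 h, where 5 libraries alone set the spread. Trends of ratios rose to 8 pairs with a pseudocount of 0.5 TPM. Covariation fell to 1 pair without a pseudocount, with CPM in place of TPM, without the control at 0 h and without the 12 h libraries. Leaving out 1 library at a time gave 1 to 2 genes at 3 h, 3 to 4 at 6 h, 3 to 5 at 12 h, 2 to 3 for 6 h against 3 h, 0 to 2 for 12 h against 6 h (0 without LatB 12 h replicate 2), 4 to 5 for 24 h against 12 h, 0 to 4 for the difference of effects, 5 to 7 pairs for ratios and 0 to 8 pairs for covariation. At 24 h all 5 genes were called in each of these fits, against either control.

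Of the single values, 903 kept their direction and side of the threshold, 82 lost the call, 42 gained it and 8 changed direction. Against the control at 24 h, NEUROG3 at 3 h was at -1.03, NEUROD1 at -0.47, INSM1 at -0.30 and PAX4 at -0.89, and PAX4 at 6 h was at -0.13. From 6 to 12 h, leaving out 1 library gave -0.023 to 1.037 for NEUROD1 and -0.10 to 1.01 for PAX4, below 0 without LatB 12 h replicate 2. The r of NKX2-2 with PAX4 ran from -0.05 without LatB 24 h replicate 1 to 0.701. The cause was not tested. Without scaling the median of all genes shifted to -0.10 at 6 h and by 0.11 from 6 to 12 h, and no gene of the 5 changed direction.

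The replicate numbers showed no clear pairing of the samples in their deviations from group means. With 2 or 3 libraries per group this cannot decide whether same-numbered libraries shared a culture. Of 36 same-numbered pairs 2 had a correlation of deviations over 0.1 (median -0.02), and 5 of 16 libraries correlated best with their own number. With a replicate block the 3 h count became 2 (INSM1 at 1.18, edgeR adjusted p = 0.0352). Depth limits the controls most, where 6 to 40 reads stood behind each of the 5 genes at 0 h.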
